A study of Mus musculus with 5 samples.

Results

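The 7 genes described here are the chitinase-like genes Chil1, Chil3 and Chil4, the secreted protein genes Retnla and Itln1, the transporter gene Slc26a4 and the arginase gene Arg1. They were found by symbol in the platform's probe annotation, where each had 1 probe set of its own and Chil3 and Chil4 shared 1 more, which makes 8 probe sets of 45101 on the array. The genes were chosen with their values on these arrays known, namely the log2 signals on all 5 arrays. Their values in those comparisons are therefore a description and carry no test.

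The 3 KA/KA samples came from mice homozygous for a knock-in allele of IKKα with the K44A change, which removes its kinase activity, and the 2 WT samples came from littermates. All were untreated 4-week-old mice on the FVB background, and the labels name no Cre or promoter that would limit the allele to a cell type. Per the labels, RNA came from bone marrow cells enriched for B220, a surface protein of B-lineage cells, with magnetic beads. Each sample was hybridised to 1 Affymetrix mouse expression array. It is not stated if the cells of an array were pooled over animals, and the number of arrays limits the precision of every comparison.

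The 5 arrays fell into 2 sets that each hold both genotypes. The 24 poly-A control probe sets had a median signal of 136 on KA/KA 2, 249 on KA/KA 3 and 46.9 on WT 2, and of 11897 on KA/KA 1 and 7305 on WT 1. Summed signals of 11 B-lineage markers were 10461 on KA/KA 2, 15767 on KA/KA 3 and 5874 on WT 2, whereas they were 68050 on KA/KA 1 and 77993 on WT 1. Of those 11 genes, the brightest 25% of probe sets held 3 on KA/KA 2, 3 on KA/KA 3 and 2 on WT 2, while it held 11 on KA/KA 1 and 10 on WT 1. B-lineage markers were thus bright on KA/KA 1 and WT 1 and largely missing on the other 3 arrays. Myeloid markers were prominent on KA/KA 1 and WT 1 too: all 12 neutrophil granule markers lay in the brightest 25% on both, while 6 did on KA/KA 2, 7 on KA/KA 3 and 4 on WT 2. Summed signals of 12 lung epithelium markers ran the opposite way, at 187233 on KA/KA 2, 197001 on KA/KA 3 and 129071 on WT 2, and at 3859 on KA/KA 1 and 3925 on WT 1. KA/KA 2, KA/KA 3 and WT 2 are called the lung-transcript arrays below, and KA/KA 1 and WT 1 the B-lineage arrays. All 5 are labelled as B220+ bone marrow cells, a label that the lung transcripts on KA/KA 2, KA/KA 3 and WT 2 do not match. The origin of those transcripts was not tested. Over the 22519 probe sets kept by the filter described below, the arrays correlated at 0.872 to 0.966 inside a set and at 0.526 to 0.631 between sets. Xist, the RNA that silences an X chromosome, read 12.48, 13.93 and 7.22 on KA/KA 1, 2 and 3 and 6.49 and 7.67 on WT 1 and 2, on the log2(signal + 16) scale. KA/KA 1 and KA/KA 2 differed in it from the other 3 arrays. KA/KA 1 minus WT 1 and KA/KA 2 minus WT 2 thus also set high Xist against low Xist, whereas KA/KA 3 minus WT 2 did not. The part of this difference in the results below was not tested.

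Type 2 inflammation is the tissue response to helminths and allergens in which the cytokines IL-4 and IL-13 act through a shared receptor chain and the transcription factor STAT6. In the lung, macrophages and airway epithelium answer with a known group of secreted proteins, enzymes and transporters, and these 7 genes are among its most used mouse readouts. Chitinase-like proteins keep the fold of a chitinase but do not cleave chitin. Chil1 encodes BRP-39, Chil3 encodes Ym1, which is also made by myeloid precursors of the marrow, and Chil4 encodes Ym2. Retnla encodes RELMα, a resistin-like protein of alternatively activated macrophages and airway epithelium. Itln1 encodes intelectin-1, a secreted lectin of goblet and Paneth cells that binds microbial sugars. Slc26a4 encodes pendrin, an apical anion exchanger, and Arg1 encodes arginase-1, which turns arginine into ornithine and urea.

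The sequences just upstream of 3 of these genes are shown because Retnla is a textbook STAT6 target and because Chil3 and Chil4 are near-copies that share a probe set. The table of RefSeq promoter windows of the GRCm38.p6 build used here matched 6 of the 7 genes, all but Arg1. Each run below is the 250 bases before the annotated start, 5′ to 3′ on the gene's own strand. Capitals mark the spaced palindrome TTCNNNNGAA in Retnla and TTCNNNGAA in Chil3 and Chil4, motifs that read the same on both strands and cannot overlap each other at the same TTC.
Retnla: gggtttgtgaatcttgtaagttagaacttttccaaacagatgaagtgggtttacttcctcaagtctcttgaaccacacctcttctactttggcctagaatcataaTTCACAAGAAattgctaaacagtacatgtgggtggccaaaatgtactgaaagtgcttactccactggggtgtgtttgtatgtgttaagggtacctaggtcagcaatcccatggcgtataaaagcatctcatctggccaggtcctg
Chil3: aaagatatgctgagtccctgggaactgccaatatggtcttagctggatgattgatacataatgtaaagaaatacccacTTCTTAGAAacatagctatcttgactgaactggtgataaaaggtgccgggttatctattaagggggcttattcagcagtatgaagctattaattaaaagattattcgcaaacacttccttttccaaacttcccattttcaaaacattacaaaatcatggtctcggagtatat
Chil4: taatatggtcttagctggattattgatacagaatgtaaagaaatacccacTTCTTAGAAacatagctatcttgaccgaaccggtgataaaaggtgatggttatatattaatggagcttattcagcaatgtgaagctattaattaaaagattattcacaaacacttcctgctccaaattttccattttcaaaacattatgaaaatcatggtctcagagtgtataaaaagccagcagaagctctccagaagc

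The Retnla run lies at chr16:48842359-48842608 on the plus strand, the Chil3 run at chr3:106167565-106167814 and the Chil4 run at chr3:106219480-106219729, both on the minus strand. TTCNNNNGAA, the spacing preferred by STAT6, occurred once in the Retnla run, at positions -145 to -136 from the start. It was present in 5.85% of 32851 mouse promoter windows of the same length. TTCNNNGAA, the spacing of other STAT factors, occurred at positions -172 to -164 of Chil3 and -200 to -192 of Chil4, with the same 9 letters in both. It was present in 7.02% of the windows. The Chil3 and Chil4 runs were identical at 201 of 222 aligned positions (90.5%), with Chil4 shifted by 28 bases. Neither motif occurred in the windows of Chil1, Itln1 and Slc26a4. These matches are letters in a window and say nothing of binding.

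On the lung-transcript arrays, all 7 genes read higher on both KA/KA 2 and KA/KA 3 than on WT 2. Mean differences ran between 1.47 for Chil3 and 6.77 for Chil4 on the log2(signal + 16) scale. With the shared probe set averaged in, Chil4 was at 4.54, below the 5.39 of Itln1, and on KA/KA 3 alone its 4.88 was also below the 5.99 of Itln1. The filter on dim probe sets keeps those whose mean over the 5 arrays is at or above the median of 7.04. Chil4, Itln1, Slc26a4 and Arg1 passed it through KA/KA 2 and KA/KA 3, the arrays of the contrast that chose them. Passing is therefore no support for these genes. All 8 probe sets passed. All 8 were also at least 1 above WT 2 on both KA/KA arrays, as were 3.1% of the 22519 probe sets kept. That contrast chose the genes, so nothing is read from the count. The median of the 7 differences was 4.80 for KA/KA 2 and 3.03 for KA/KA 3, against -0.04 and -0.01 over the 11392 genes kept. In bulk RNA, fewer cells of a type and less RNA per cell cannot be told apart, and this holds for every difference below.

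**Figure D1:**
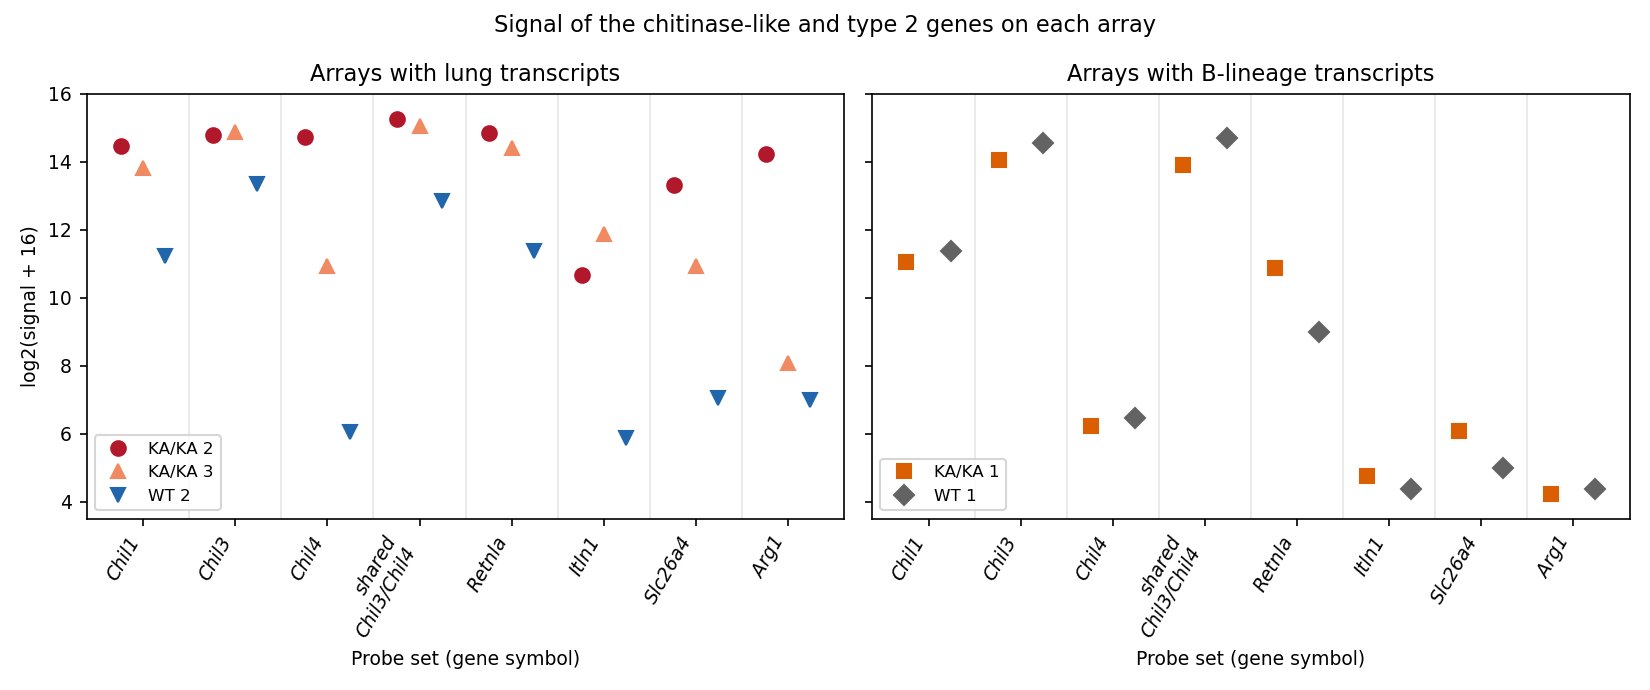
Level of each probe set, log2(signal + 16), with KA/KA 2, KA/KA 3 and WT 2 in the left panel and KA/KA 1 and WT 1 in the right panel, 1 point per array. KA/KA 2 and KA/KA 3 lie above WT 2 for all 8 probe sets, while in the right panel Retnla, at 10.86 on KA/KA 1 and 8.98 on WT 1, shows the widest gap.

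Among the chitinase-like genes, Chil4 differed most. Its own probe set read 14.72 on KA/KA 2 and 10.94 on KA/KA 3, against 6.05 on WT 2. In linear signal these are 26919 and 1943, against 50.5. Chil4 was thus bright on both KA/KA arrays and dim on WT 2, where it exceeded only 31.9% of probe sets, a difference of 8.66 and 4.88 and a mean of 6.77 ± 2.67 (SD over the 2 KA/KA arrays). The size of the fold depends on that dim WT 2 signal, so none is given.

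Chil1 read 14.45 on KA/KA 2 and 13.82 on KA/KA 3, against 11.21 on WT 2. The KA/KA arrays stood 3.24 and 2.61 above a WT array on which the gene was already well over the array median, a mean of 2.92 ± 0.45 or 7.58-fold. Folds here are ratios of signal + 16, which are smaller than ratios of the signals themselves. Chil3 read 14.78 on KA/KA 2 and 14.86 on KA/KA 3, against 13.35 on WT 2. Chil3 was among the brightest probe sets of every array, and its difference was the smallest of the 7, at 1.43 and 1.51 with a mean of 1.47 ± 0.05, or 2.77-fold. After quantile normalisation in place of the deposited scaling the Chil3 differences were 0.84 and 0.81, so it then missed the limit of 1.

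The probe set shared by Chil3 and Chil4 read 15.24 on KA/KA 2 and 15.05 on KA/KA 3, against 12.83 on WT 2. Its differences of 2.41 and 2.22 lay between those of the probe sets assigned to each gene alone. Because the transcripts are near-copies, probe sets annotated to 1 of them may also bind the other, and the split of signal between Chil3 and Chil4 is uncertain.

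Retnla read 14.84 on KA/KA 2 and 14.38 on KA/KA 3, against 11.36 on WT 2. The KA/KA arrays were close to each other and 3.49 and 3.03 above WT 2, a mean of 3.26 ± 0.33 or 9.55-fold. Itln1 read 10.66 on KA/KA 2 and 11.86 on KA/KA 3, against 5.87 on WT 2. On WT 2 it was dim and exceeded only 28.5% of probe sets, and the KA/KA arrays stood 4.80 and 5.99 above that, a mean of 5.39 ± 0.85. Unlike 5 of the other 6 genes, Itln1 was brighter on KA/KA 3 than on KA/KA 2.

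Slc26a4 read 13.32 on KA/KA 2 and 10.93 on KA/KA 3, against 7.05 on WT 2. WT 2 was near the array median and both KA/KA arrays were above it, by 6.26 and 3.88, a mean of 5.07 ± 1.68 or 33.7-fold. Arg1 read 14.23 on KA/KA 2 and 8.08 on KA/KA 3, against 6.98 on WT 2. In linear signal that was 19256 and 255, against 111.

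The Arg1 difference therefore rested on KA/KA 2. It was 7.25 there, or 152-fold, and 1.10 on KA/KA 3, or 2.14-fold, so the mean of 4.17 had an SD of 4.35. With a constant of 64 in place of 16 the KA/KA 3 difference of Arg1 was 0.87, under the limit of 1. KA/KA 2 also stood apart in markers of squamous keratinocytes, the cells of stratified epithelium. The summed signal of the 11 markers was 65406 on KA/KA 2 and 543 on KA/KA 3, against 602 on WT 2, and 8 of the 11 lay in the brightest 25% of probe sets on KA/KA 2 and 0 on each of the other 4 arrays. Krt14, the keratin of basal keratinocytes, read 13.90 on KA/KA 2 and 4.53 on KA/KA 3, against 5.56 on WT 2. Of the 7 genes, 5 were higher on KA/KA 2 than on KA/KA 3, and Chil3 and Itln1 were not. The part of these cells in the differences of Arg1 and of the other genes was not tested.

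**Figure D2:**
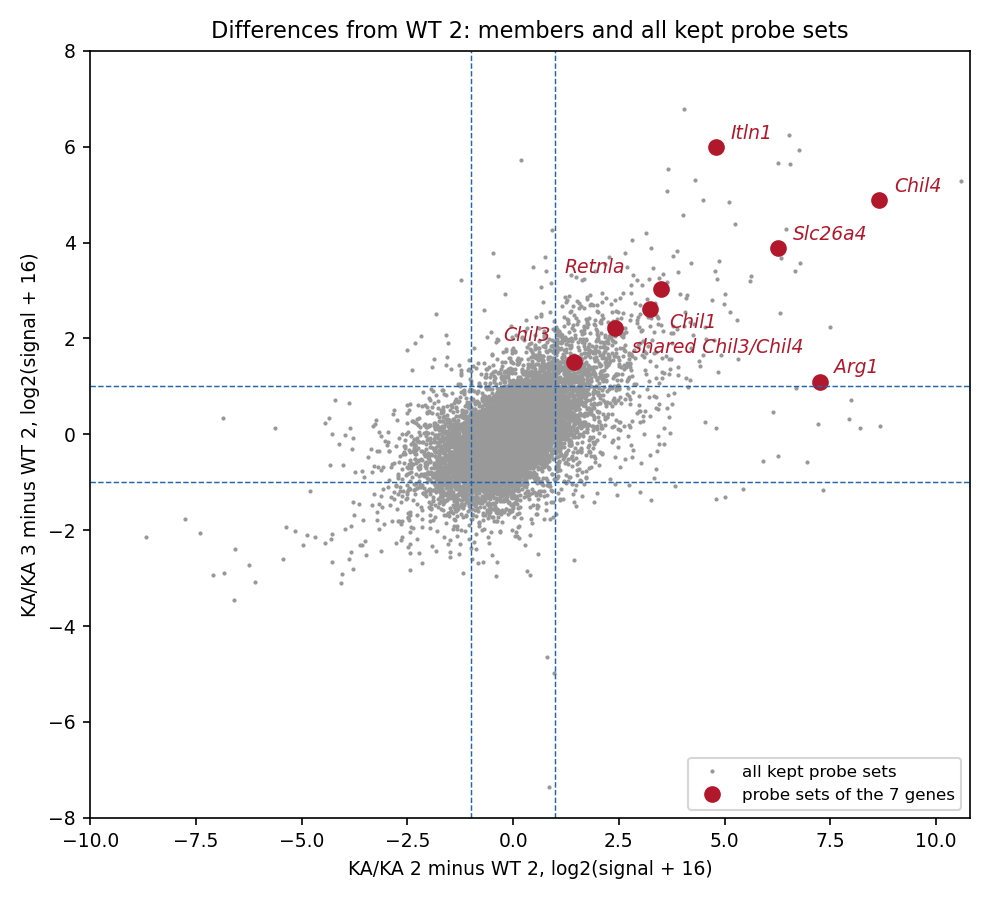
Each point is a kept probe set, with KA/KA 2 minus WT 2 on the x axis and KA/KA 3 minus WT 2 on the y axis, both differences of log2(signal + 16). Dashed lines mark differences of 1 either way, and the 8 labelled probe sets lie beyond 1 on both axes, with Arg1 just past it on the y axis.

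On the B-lineage arrays the picture was different in its values. KA/KA 1 was at least 1 above WT 1 for 2 of the 8 probe sets, Retnla and Slc26a4, as were 2.85% of all kept probe sets. With a constant of 64 Slc26a4 was at 0.53 and no longer met that limit, and with a constant of 1 Itln1 was at 1.11 and met it. It was at least 1 below WT 1 for 0 of the 8, as were 1.56% of all. The other 6 lay within 1, and the median of the 7 genes was -0.14, against 0.08 over all genes kept. This comparison has 1 array of each genotype, so it has no replicate check.

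Retnla read 10.86 on KA/KA 1, against 8.98 on WT 1. The difference of 1.88, or 3.69-fold, was in the same direction as on the lung-transcript arrays. Slc26a4 read 6.07 on KA/KA 1, against 4.99 on WT 1, a difference of 1.09. Both Slc26a4 levels were below the array median, at linear signals of 51.2 and 15.7, where the signal of this array type is least certain.

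Chil3 was bright on both B-lineage arrays, at 14.05 on KA/KA 1, against 14.56 on WT 1. Its difference of -0.50 was opposite in sign to that on the lung-transcript arrays, and became 0.18 after quantile normalisation. The shared probe set was lower on KA/KA 1 by more, at 13.91, against 14.68 on WT 1. Chil1 read 11.03 on KA/KA 1, against 11.37 on WT 1. It was bright on both, in the top 8.28% and 6.36% of probe sets.

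Chil4, Itln1 and Arg1 were dim on both B-lineage arrays. Chil4 read 6.22 on KA/KA 1, against 6.46 on WT 1. Itln1 read 4.76 on KA/KA 1, against 4.37 on WT 1. Arg1 read 4.22 on KA/KA 1, against 4.36 on WT 1, and its difference of -0.14 became 0.28 with a floor at the 20th percentile of each array. All 6 of these levels were below the array medians of 6.80 and 6.82, so a difference between genotypes was hardly measurable there.

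**Figure D3:**
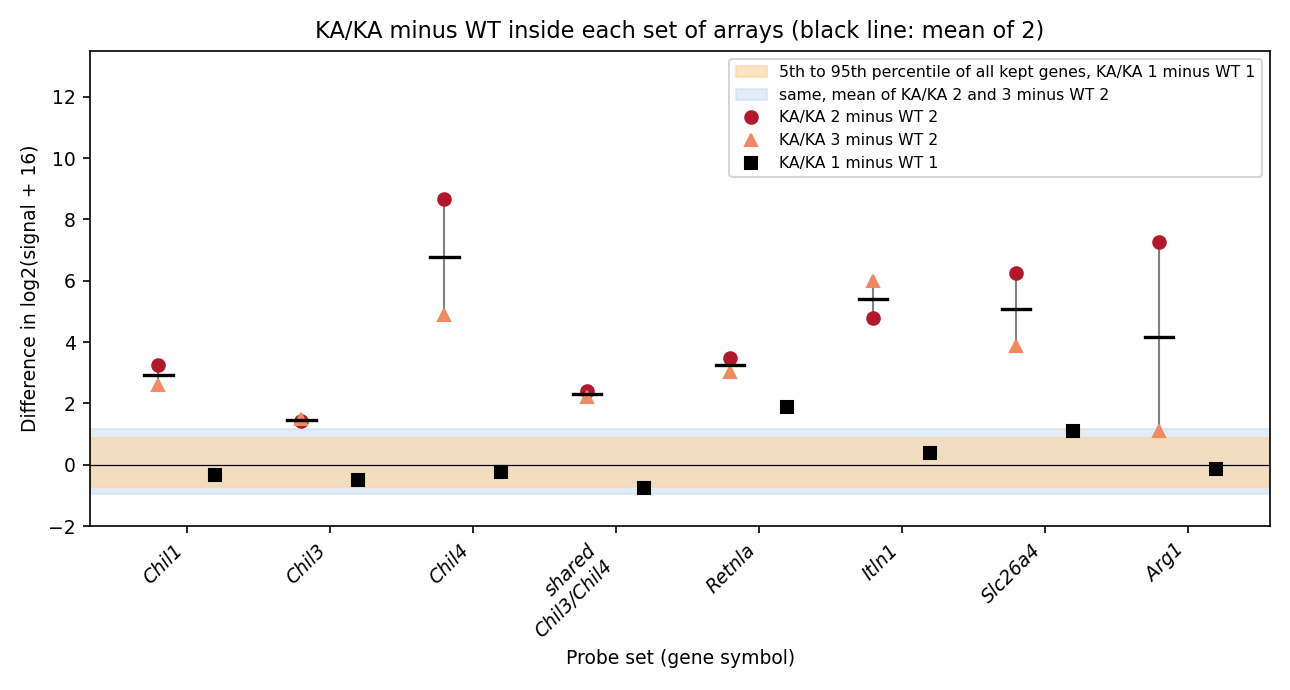
KA/KA minus WT difference in log2(signal + 16) for each probe set, with circles for KA/KA 2 and triangles for KA/KA 3 against WT 2, a black line at their mean, and squares for KA/KA 1 against WT 1; the bands hold all kept genes but the outer 5% at each end (-0.97 to 1.17 for the mean against WT 2, -0.74 to 0.86 for KA/KA 1 minus WT 1). All 16 differences against WT 2 are above 1, and the 8 against WT 1 lie between -0.78 and 1.88.

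The WT arrays alone also differed in these genes, 1 array against 1. WT 2 is a lung-transcript array and WT 1 a B-lineage array, so these differences do not measure the spread between WT mice. WT 2 was at least 1 above WT 1 for 4 of the 7 genes. The differences were 2.63 for Arg1, 2.38 for Retnla, 2.07 for Slc26a4 and 1.50 for Itln1. These are the secreted Retnla and Itln1, the transporter and the enzyme. For the chitinase-like genes WT 2 was not above WT 1, with differences of -0.16 for Chil1, -0.40 for Chil4, -1.20 for Chil3 and -1.85 for the shared probe set. Of these, Chil3 was bright on both WT arrays, whereas Chil4 was dim on both.

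Across both sets, 0 of the 8 probe sets were higher on all 3 KA/KA arrays than on both WT arrays, against 3.87% of the kept probe sets. This count also compares arrays of different sets, such as KA/KA 1 with WT 2, so differences between the sets enter it. Retnla and Slc26a4, higher in KA/KA inside both sets, read 10.86 and 6.07 on KA/KA 1, against 11.36 and 7.05 on WT 2. Nothing on genotype is read from the count. Taking all 5 arrays together, limma called 0% of the 22519 probe sets at an adjusted p under 0.05, and 47 had an unadjusted p under 0.05. That fit has no term for the array set, so the difference between the sets enters the spread inside each genotype. With the array set as a block it also called 0%, with 673 at an unadjusted p under 0.05. With so few arrays, neither count shows that the genotypes are alike. No p is given for the 7 genes, since they were chosen on these values.

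Chromosomal neighbours of the same gene families were read beside them. Chia1, the acidic chitinase that does cleave chitin and lies next to Chil3, read 13.82 on KA/KA 2 and 11.98 on KA/KA 3, against 12.42 on WT 2. It was thus high on all 3 lung-transcript arrays and moved in opposite directions on the KA/KA arrays. Chit1, the chitotriosidase gene beside Chil1, read 7.47 on KA/KA 2 and 6.95 on KA/KA 3, against 7.12 on WT 2, which put the KA/KA arrays 0.35 above and 0.17 below it. Retnlb, a resistin-like gene of gut goblet cells beside Retnla, was below the filter at 6.67 on KA/KA 2 and 5.27 on KA/KA 3, against 4.28 on WT 2. Chil5, Chil6 and Retnlg were not analysed here.

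The remaining chitinase and resistin family was described over 7 genes with a probe set, of which 6 passed the filter. Of these, 0 were at least 1 higher and 0 at least 1 lower on both KA/KA 2 and KA/KA 3 than on WT 2, while over all genes kept 3.83% were higher and 1.76% lower. Their median mean difference was 0.08, against -0.03 over all genes. The genes furthest from 0 were Retn and Ovgp1. Retn, the resistin gene, read 7.01 on KA/KA 2 and 7.71 on KA/KA 3, against 8.49 on WT 2. Ovgp1, an oviduct glycoprotein of the chitinase family, was 0.65 and 1.10 above WT 2.

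Of 16 type 2 cytokine, alarmin and receptor genes on the array, 8 passed the filter, 2 were higher on both KA/KA arrays and 0 lower, beside 3.83% and 1.76% of all genes kept. Their median difference was 0.78. Il13ra2, the decoy receptor for IL-13, read 9.23 on KA/KA 2 and 7.11 on KA/KA 3, against 5.55 on WT 2. Crlf2, the receptor chain for TSLP, read 11.80 on KA/KA 2 and 11.13 on KA/KA 3, against 10.03 on WT 2. Neither differed by 1 on the B-lineage arrays. Stat6, named after its values were seen, was close to WT 2 on both, at 11.08 on KA/KA 2 and 11.38 on KA/KA 3, against 10.94 on WT 2. Il4, Il5 and Il13, the cytokines themselves, were below the filter.

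Of 23 genes of alternative macrophage activation, 20 passed the filter, 5 were higher on both KA/KA arrays and 0 lower, with a median of 1.08. Over all genes kept 3.83% were higher and 1.76% lower. Ccl8, a chemokine of tissue macrophages, read 14.96 on KA/KA 2 and 12.80 on KA/KA 3, against 8.52 on WT 2. Ctsk, the protease cathepsin K, read 13.61 on KA/KA 2 and 12.36 on KA/KA 3, against 9.51 on WT 2. Ccl22, a chemokine for type 2 T cells, read 9.14 on KA/KA 2 and 10.57 on KA/KA 3, against 6.87 on WT 2. Ccl8 and Ccl22, like Retnla, were also higher on KA/KA 1 than on WT 1, by 2.59 and 1.57. Ccl22 was dim there, at 6.04 on KA/KA 1 and 4.47 on WT 1, below the array medians of 6.80 and 6.82. Arg2, the mitochondrial arginase, read 10.50 on KA/KA 2 and 10.68 on KA/KA 3, against 7.72 on WT 2, so that its excess on the 2 KA/KA arrays was near equal where that of Arg1 was not. On the B-lineage arrays Arg2 read 5.86 on KA/KA 1, against 7.80 on WT 1. In this list KA/KA 1 was at least 1 above WT 1 for 4 genes and at least 1 below for 3, beside 2.85% and 1.56% of all kept probe sets.

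Among 10 kept genes of arginine and polyamine metabolism, the pathway that Arg1 opens, Arg2 was the 1 higher on both KA/KA arrays and 0 were lower, with a median of 0.34. Among 12 kept goblet cell and airway epithelial genes, 3 were higher and 1 lower, with a median of 0.25. Both counts stand beside 3.83% higher and 1.76% lower over all genes kept. Ccl11, the eosinophil chemokine eotaxin, read 11.70 on KA/KA 2 and 9.71 on KA/KA 3, against 7.42 on WT 2. Pigr, which carries IgA across epithelium, read 13.63 on KA/KA 2 and 13.02 on KA/KA 3, against 10.28 on WT 2. Serpinb2, an IL-13-inducible serpin of airway epithelium, was 3.90 and 1.23 above WT 2. Bpifa1, a secreted protein of the upper airway, was lower, at 5.05 on KA/KA 2 and 11.60 on KA/KA 3, against 13.73 on WT 2.

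For each of the 7 genes, the genes with the most similar pattern were found by the Euclidean distance between mean-centred log2 values over the 5 arrays, among 11385 other genes. Smaller distances mean closer patterns, and only 5 points enter each. Ptgir at 0.291 and Cd33 at 0.296 were nearest to Chil3, and Pla2g7 at 0.676 and Stra6l at 0.746 to Chil1. Ctla4 at 0.943 and Ccl22 at 1.38 were nearest to Retnla. Ms4a8a at 0.576 and Saa3 at 1.87 were nearest to Itln1. Mmp12, the macrophage elastase, was among the nearest pair of Chil4 (2.28, with Gpnmb at 2.31), Slc26a4 (1.82, with Ccl11 at 1.74) and Arg1 (1.78, with Klk13 at 2.73). It read 14.53 on KA/KA 2 and 10.75 on KA/KA 3, against 8.22 on WT 2. Those 3 genes had the same order on the lung-transcript arrays, though over all 5 arrays only Arg1 shared it.

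Some, though not all, marker lists of other cell types moved with these genes. The counts below stand beside 3.83% of all genes kept that were at least 1 higher on both KA/KA arrays and 1.76% that were lower. Of 11 monocyte and macrophage markers, 7 were at least 1 higher on both KA/KA 2 and KA/KA 3 than on WT 2, and their summed signal was 91258 and 65517, against 27972. On the B-lineage arrays that sum was 54269 on KA/KA 1, against 58900 on WT 1. Chil1, Chil3, Chil4, Retnla and Arg1 are known macrophage products, and the part of these cells in their differences was not tested. The neutrophil granule list had 5 of 12 genes higher, with a sum of 59323 and 91120, against 8315 on WT 2. On KA/KA 2 and KA/KA 3 most of that sum came from S100a8, S100a9 and Lcn2. Of the 7 genes that were not higher on both, Ltf was at -0.55 and -1.53, Elane at -0.25 and 0.02 and Camp at 0.47 and 3.48. On the B-lineage arrays the sum was 138817 on KA/KA 1, against 211189 on WT 1. Chil3, known from neutrophil precursors, was at 13.35 or more on all 5 arrays, and the part of these cells was likewise not tested.

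Of 4 kept eosinophil markers, 3 were higher on both KA/KA arrays, with the sum over 7 genes at 1393 and 1473, against 728 on WT 2. The B-lineage arrays also differed, at 7341 on KA/KA 1, against 1551 on WT 1. Prg2, the eosinophil major basic protein gene, read 12.34 on KA/KA 1, against 9.58 on WT 1, so the B-lineage array with more Retnla signal also had more signal of this granule gene. Of 9 kept T cell and type 2 lymphoid markers, 4 were higher on both KA/KA arrays, with a sum of 11295 and 14532, against 4142 on WT 2. Of 8 kept alveolar macrophage markers 2 were higher, Atp6v0d2 and Msr1. The sum over 10 genes was 23563 and 21212, against 16253 on WT 2. Fabp1 and Cidec, in the sum but below the filter, were lower on both KA/KA arrays. Their differences were -5.85 and -3.87 for Fabp1 and -3.11 and -1.59 for Cidec. Of 10 kept lung epithelium markers 1 was higher and 1 lower on both. Mast cell and basophil markers had 0 of 3 higher, with a sum of 4895 and 10176, against 9970 on WT 2. Those 3 were Kit, Hdc and Gata2, which made up most of the sum. Every other gene of that list, such as Mcpt4, Cpa3 and Fcer1a, was below the filter. Of 10 kept B-lineage markers 2 were higher on both. No deposited signal is exactly 0, and the part of each cell type was not tested.

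**Figure D4:**
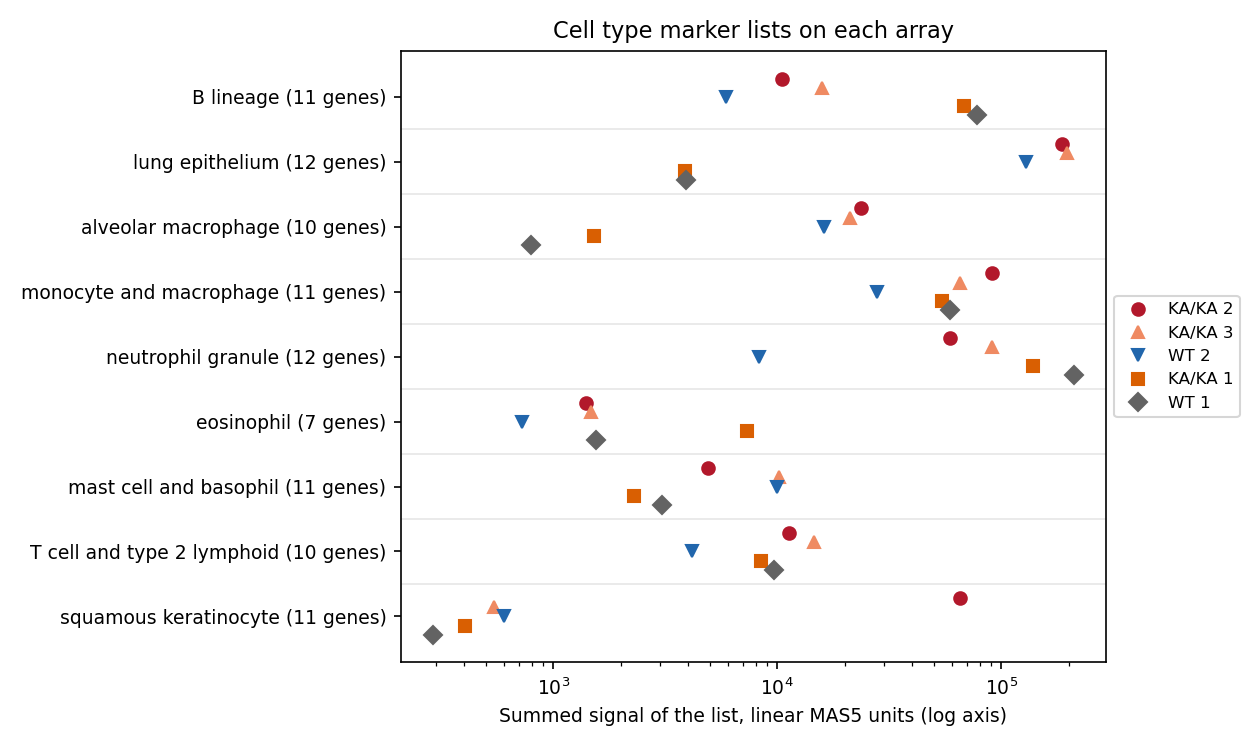
Summed linear signal of each cell type marker list on a log axis, 1 point for each of the 5 arrays. The monocyte and macrophage sums and the neutrophil granule sums of KA/KA 2 and KA/KA 3 lie above those of WT 2. On KA/KA 2 and KA/KA 3 the neutrophil granule sums come mostly from S100a8, S100a9 and Lcn2. The keratinocyte sum is high on KA/KA 2 alone.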

How the data were processed

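The values deposited by the authors are intensities of 45101 probe sets on 5 arrays. Per the submitters' processing notes MAS5 was used (version not given), and a trimmed mean of 500.0 per array (2% left out at each end) shows its linear scaling. The series text speaks of a log2 transformation, but the highest deposited signals were 21977 to 40821, so they were used as linear. Labelling started from 150 ng of RNA per array, per the labels' protocols. From the signals, log2(signal + 16) was computed, and the 22519 probe sets whose mean reached the median of all means were kept. Of all probe sets, 34958 had 1 gene symbol and 932 had several. Genes with several probe sets were taken by the one of highest mean.

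The arrays were divided by the poly-A control signal, at a median of 10 on the log2 scale. Differences are KA/KA minus WT. Counts over all probe sets used limma 3.58.1 in R 4.3.3 with an intensity trend and Benjamini-Hochberg adjustment. On simulated data with equal noise for all probe sets, the fit was checked only for recovering the size of the differences put in. That check does not bear on the number of probe sets called in the real data. P-values measure only the spread between these samples. Promoter windows came from RefSeq (GRCm38.p6) and were aligned with Biopython 1.88. The 7 genes, the pathway lists and the marker lists were chosen with earlier results of these data known. In each pathway list, genes at least 1 from WT 2 the same way on both KA/KA arrays were named, at most 4 per direction by mean difference, or the 2 furthest from 0 where there were none.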

Additional observations from a re-analysis of the deposited data

Results flagged for a closer look

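For 4 of the 7 genes and the shared probe set, KA/KA 2 and KA/KA 3 were both above WT 2 while KA/KA 1 was below WT 1, so that every array moved 1 way in the first set and the opposite way in the second. The gap between the mean difference of the lung-transcript arrays and the difference of the B-lineage arrays, on the log2(signal + 16) scale, was 7.01 for Chil4, 4.31 for Arg1, 3.26 for Chil1, 3.09 for the probe set of Chil3 and Chil4 together, and 1.97 for Chil3. This difference between the sets was not tested, since the genes were chosen on these values. The B-lineage differences behind it are small, between -0.78 and -0.14, and Chil4 and Arg1 are below the array median there. Under quantile normalisation that of Chil3 was 0.18, and with a floor at the 20th percentile of each array that of Arg1 was 0.28, so neither kept its sign.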

How the results depend on the processing

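For the 7 genes the alternatives were other constants (1 and 64), a floor at the 20th percentile of each array, centring on the median, quantile normalisation, the mean of own and shared probe sets for Chil3 and Chil4, and leaving out KA/KA 2 or KA/KA 3. Across them the genes stayed above WT 2 in 51 of 51 recomputed values, which ran between 0.83 and 8.66. The genes were chosen on this contrast, and leaving out a KA/KA array only returns the difference of the other. That count is therefore a description and no support. The counts of limma over all probe sets were also made with other filters, without trend, with robust variances and without each array. The median difference of the 7 genes was 3.03 without KA/KA 2 and 4.80 without KA/KA 3. The share of kept probe sets at least 1 above WT 2 became 5.35% without KA/KA 2 and 7.11% without KA/KA 3, because 1 KA/KA array then has to pass in place of 2. KA/KA 1 was at least 1 above WT 1 for 1.13% with a constant of 64 and for 5.62% with no filter, and at least 1 below for 0.808% and 4.08%. The replicate block gave 3 calls, Ms4a4b and 2 probe sets of Xist, with 869 probe sets at an unadjusted p under 0.05. The groups share 2 replicate numbers, which coincide with the array sets, and the labels do not tie a number to a litter, so the numbers were not taken as pairing. Deviations from the group means correlated at 0.870 for number 1 and 0.648 for number 2. KA/KA 3 and WT 2, whose numbers differ, correlated at 0.773. With 2 WT arrays these values only restate the array sets, so they cannot show pairing by number. With the array set as a block, leaving out 1 array gave 0 to 6 calls. The 6 came without KA/KA 2, and without KA/KA 3 there were 2, both of Xist. Each set holds 1 WT array, so the spread of WT within a set is unknown, and dim signals near the constant have the least certain differences.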

Other observations

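Several genes of the same biology lay below the filter because they were dim on most arrays, and the ones given here were chosen after their values were seen. Clca1, a goblet cell gene that IL-13 is known to induce, read 7.89 on KA/KA 2 and 10.52 on KA/KA 3, against 4.24 on WT 2, so its excess was greater on KA/KA 3, as for Itln1. It read 4.12 on KA/KA 1, against 4.31 on WT 1. Muc5ac, the airway goblet cell mucin, read 5.06 on KA/KA 2 and 5.53 on KA/KA 3, against 5.05 on WT 2. Ccl24, an eosinophil chemokine of macrophages, read 10.50 on KA/KA 2 and 5.57 on KA/KA 3, against 5.60 on WT 2, and like Arg1 was bright on KA/KA 2 alone. Il4 read 7.91 on KA/KA 2 and 7.19 on KA/KA 3, against 6.15 on WT 2. Il13 read 5.62 on KA/KA 2 and 4.50 on KA/KA 3, against 4.81 on WT 2. Il33, the epithelial alarmin, passed the filter and read 13.24 on KA/KA 2 and 11.12 on KA/KA 3, against 11.32 on WT 2.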
